A study of Homo sapiens with 6 samples.

Results

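The 10 genes described here make the replicative helicase MCM, factors that load it onto origins of replication, a loading inhibitor and an activation factor. They are MCM2, MCM3, MCM4, MCM5, MCM6, MCM7, MCM10, CDT1, CDC6 and GMNN. They were chosen by name from the 42902 Gene IDs of the deposited count table, and all 10 passed the filter on low counts. RNA was sequenced from PANC-1, a human line established from a pancreatic ductal carcinoma. The shNC group (3 libraries, genotype labelled WT) carried a non-targeting control hairpin, and the shRRM2 group (3 libraries) carried a short hairpin RNA against RRM2, the small subunit of ribonucleotide reductase. According to the series text, the comparison was made to look for genes downstream of RRM2. Whether a group's libraries were grown separately is not labelled, nor is the number of hairpins or clones. A p-value here sets the difference between the groups against how far the libraries of a group vary, and that variation may be technical only.

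Before each round of DNA synthesis, the origin recognition complex (ORC), CDC6 and CDT1 close the ring of MCM2 to MCM7 around DNA, a step called licensing. Geminin, the product of GMNN, binds CDT1 and blocks further loading once DNA synthesis has begun. At firing, CDC45 and the GINS complex join the ring to make the active helicase, and MCM10 helps that helicase to unwind. Transcription of most of these genes is known to be driven by E2F factors as cells leave G1.

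RRM2 counts were 3567, 4435 and 3342 in the control libraries and 716, 808 and 716 in the knockdown libraries (log2 fold change −2.31, SE 0.0443; edgeR adjusted p = 3.66e-29). Library totals ran from 16606947 to 23300433 counts, and each of the 10 licensing genes had between 1021 and 12542 counts in every library. The keratins KRT7, KRT8 and KRT18 had at least 11206 counts in each library, whereas the epithelial markers KRT19 and EPCAM reached only 6 and 16. Defining markers of other cell types were near 0: DCN, LUM and COL1A2 of fibroblasts reached at most 10 counts, PTPRC of leukocytes 3, KDR of endothelium 0 and ALB of hepatocytes 0. CDH5 of endothelium (13 to 54) and THY1 of fibroblasts (4 to 14) were above that.

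The 6 genes of the helicase ring were all lower in the knockdown, and the loaders CDT1 and CDC6 and the activation factor MCM10 were higher, while the CDT1 inhibitor GMNN was lower. In edgeR's quasi-likelihood test with Benjamini-Hochberg adjustment over 15866 genes (threshold 0.05), 3 of the 10 rose and 7 fell. The background is high, since 52.1% of all tested genes passed, 26.0% upward and 26.1% downward. Among the 3782 tested genes with a mean level at or above that of MCM10, the least abundant of the 10, 72.5% passed, 30.6% upward and 41.9% downward. The changes were small, from −0.39 to 0.45 on the log2 scale, with a median size of 0.29 against 0.26 for all tested genes. All 10 were at or above percentile 73.8 of control level, and their sizes were not compared with genes of like level. In all 10 genes the shNC and shRRM2 libraries did not overlap in CPM (counts scaled to a common TMM-adjusted library total), which was so for 57.8% of tested genes.

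**Figure D1:**
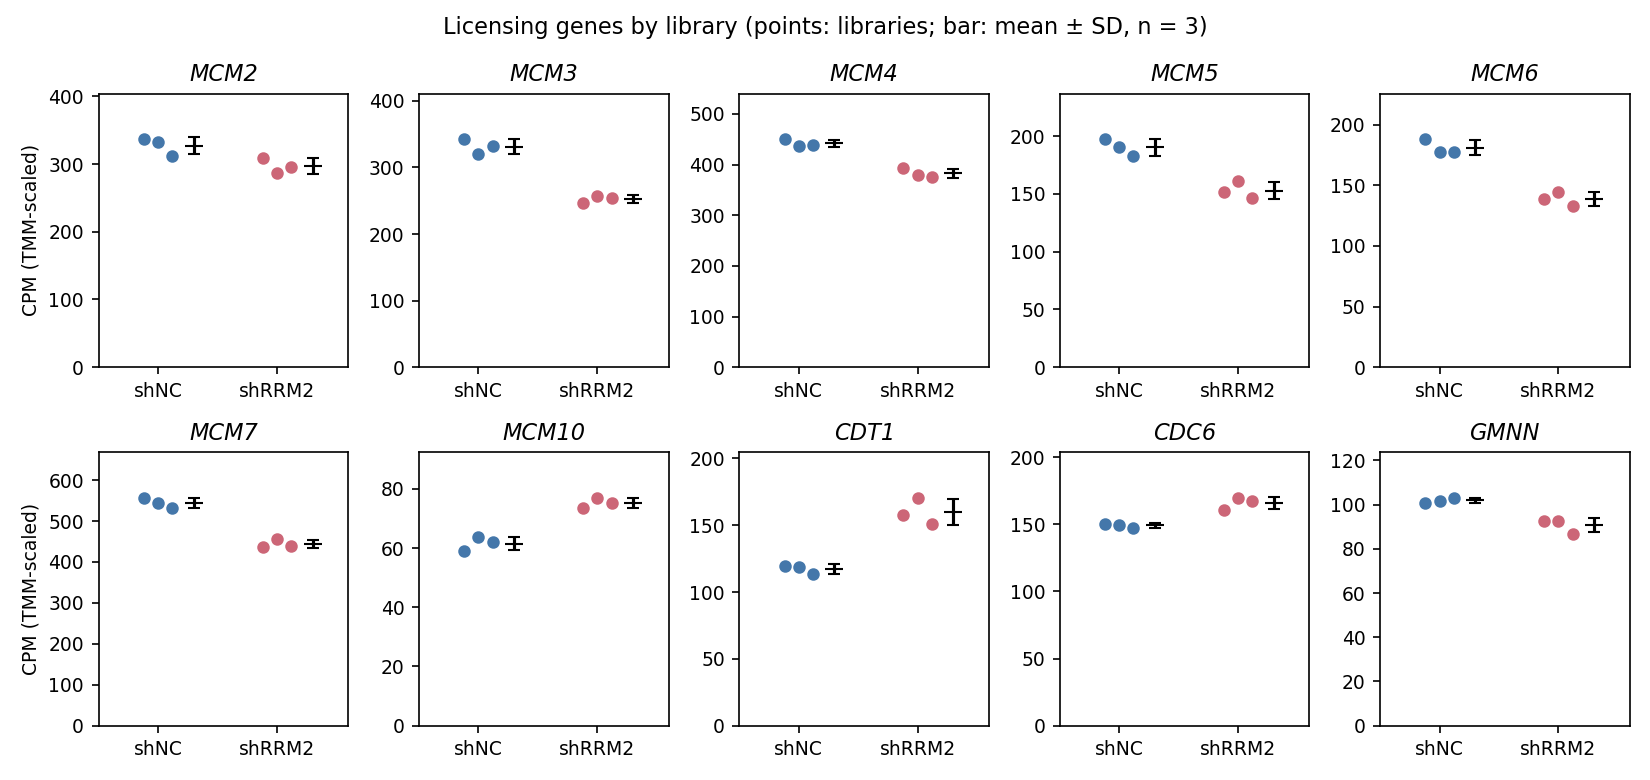
Level of each of the 10 licensing genes in CPM (vertical axis, from 0) in the 3 shNC and 3 shRRM2 libraries; points are libraries and bars the mean ± SD. The 6 ring genes and GMNN sit lower in shRRM2, MCM10, CDT1 and CDC6 sit higher, and the groups do not overlap in any panel.

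MCM3 (Gene ID 4172, chromosome 6, 52264015 to 52284742, GRCh38) encodes the ring subunit that first docks on ORC and CDC6. It stood at 343, 319.6 and 332 CPM in shNC and at 246, 257 and 254 CPM in shRRM2. Every knockdown library was below every control library, and the fitted level was 76.2% of control (log2 fold change −0.39, SE 0.0337; edgeR adjusted p = 8.87e-12).

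MCM6 (Gene ID 4175, chromosome 2, 135839626 to 135876443) fell by a like amount. Its levels were 188, 178 and 178 CPM in shNC and 138, 145 and 133 CPM in shRRM2, with no overlap (log2 fold change −0.38, SE 0.0390; edgeR adjusted p = 4.11e-10). MCM5 (Gene ID 4174, chromosome 22, 35400140 to 35455031), which with MCM2 forms the gate through which DNA enters the ring, stood at 197, 190.5 and 183 CPM in shNC and at 152, 161 and 146 CPM in shRRM2. The lowest control library of MCM5 was above the highest knockdown library (−0.31, SE 0.0395; edgeR adjusted p = 3.45e-08).

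MCM7 (Gene ID 4176, chromosome 7, 100092728 to 100101397) was the most abundant of the 10 in CPM. Its 3 shNC libraries were at 557, 543 and 532 CPM and its 3 shRRM2 libraries at 437, 455 and 440.1 CPM. The separation between the groups was wider than the range within either (−0.29, SE 0.0302; edgeR adjusted p = 5.30e-10). MCM4 (Gene ID 4173, chromosome 8, 47960941 to 47978160), whose long amino-terminal tail is a target of the firing kinase CDC7, stood at 450.3, 437 and 439 CPM in shNC and at 393, 380.4 and 375 CPM in shRRM2. Again no knockdown library reached the control range (−0.21, SE 0.0307; edgeR adjusted p = 6.96e-07).

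MCM2 (Gene ID 4171, chromosome 3, 127598411 to 127622436), which also binds histones, had the smallest change among the ring genes. It was at 337, 333 and 313 CPM in the controls and at 309, 286 and 295 CPM in shRRM2. The groups were separated only narrowly, by the gap between 313 and 309 CPM (−0.14, SE 0.0349; edgeR adjusted p = 0.000916). The 95% interval of MCM2, −0.21 to −0.07, did not meet those of MCM3 (−0.46 to −0.32), MCM6 (−0.46 to −0.30), MCM5 (−0.39 to −0.23) or MCM7 (−0.35 to −0.23). The interval of MCM4, −0.27 to −0.15, overlapped those of MCM2, MCM5 and MCM7 but not those of MCM3 and MCM6. Differences between subunits were not tested as such.

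**Figure D2:**
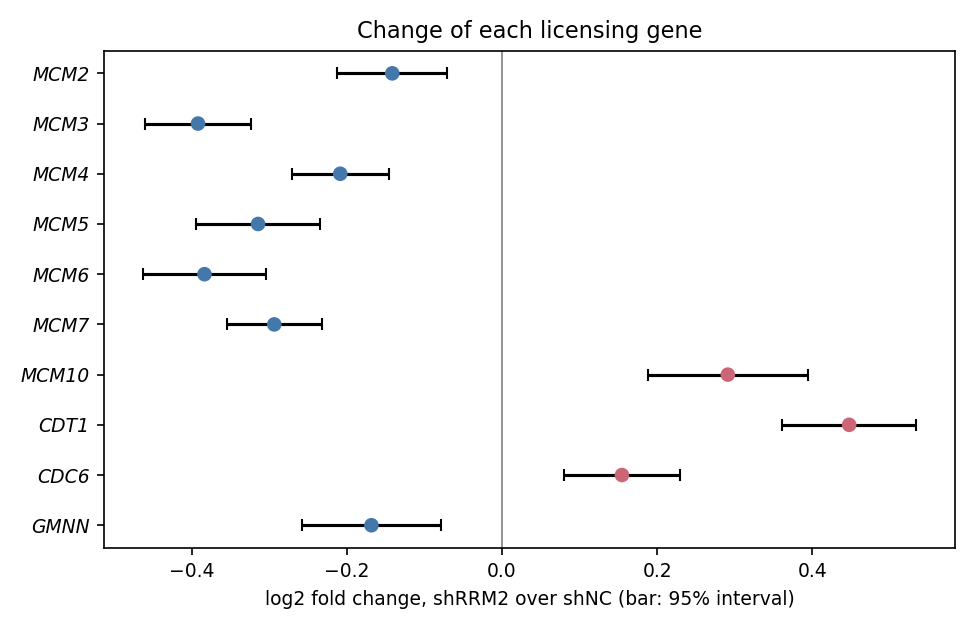
Log2 fold change of shRRM2 over shNC for each of the 10 licensing genes (horizontal axis), with 95% intervals from edgeR. No interval reaches 0; the ring genes lie between −0.39 and −0.14, and CDT1 lies farthest to the right at 0.45.

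Summed over the ring genes, the level was 2016 ± 50.5 CPM in the controls and 1668 ± 21.9 CPM in the knockdown (SD, n = 3 each), so that 82.7% of the control level was left. The make-up of this sum, taken per kilobase of principal transcript, moved slightly. MCM2 made up 15.0% to 15.8% of it in the shNC libraries and 16.2% to 17.6% in the shRRM2 libraries, and MCM4 went from 17.9% to 18.3% up to 18.6% to 19.4%. MCM3 went the other way, from 17.1% to 18.0% down to 15.9% to 16.6%, as did MCM6, from 8.19% to 8.37% down to 7.50% to 7.94%. The shares of MCM7 (31.3% to 31.6% against 30.5% to 31.5%) and MCM5 (9.01% to 9.28% against 8.69% to 9.32%) overlapped between the groups. With 3 libraries a group an exact permutation test cannot give a p below 0.1, so none is given for these shares.

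CDT1 (Gene ID 81620, chromosome 16, 88803789 to 88809258), which brings the MCM ring to the origin, had the largest fitted change of the 10 genes. Its shNC libraries were at 119.6, 119 and 113 CPM and its shRRM2 libraries at 158, 171 and 151 CPM. The lowest knockdown library was well above the highest control library, and the fitted level was 136% of control (log2 fold change 0.45, SE 0.0424; edgeR adjusted p = 8.335e-11). Of all tested genes, whatever their level, 27.7% had a larger change in size.

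CDC6 (Gene ID 990, chromosome 17, 40287879 to 40304657), the ATPase that joins ORC to receive the ring, rose less. It stood at 150.4, 149.8 and 147 CPM in shNC and at 161, 169.9 and 167 CPM in shRRM2, and the groups did not overlap (0.15, SE 0.0370; edgeR adjusted p = 0.000663). MCM10 (Gene ID 55388, chromosome 10, 13161558 to 13211110) shares a name but not its fold with the ring subunits. It was at 59.1, 63.6 and 61.9 CPM in the controls and at 73.6, 77.1 and 75.4 CPM in shRRM2 (0.29, SE 0.0506; edgeR adjusted p = 1.05e-05), opposite in direction to MCM2 to MCM7.

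GMNN (Gene ID 51053, chromosome 6, 24774937 to 24786099) moved against the factor it inhibits. Its levels were 101, 102 and 103 CPM in shNC and 92.7, 92.6 and 86.9 CPM in shRRM2, a small fall with separate groups (−0.17, SE 0.0441; edgeR adjusted p = 0.00167). Within a library, the ratio of CDT1 counts to GMNN counts was 1.18, 1.17 and 1.10 in shNC and 1.70, 1.84 and 1.74 in shRRM2. On the log2 scale the ratio was higher by 0.62 in the knockdown, and all 3 knockdown libraries were above all 3 controls (two-sided exact permutation p = 0.1, the smallest that 3 against 3 allows). With CDT1 higher and GMNN lower, each without overlap, the ratio had to separate the groups. This p was thus fixed beforehand and adds nothing to the edgeR calls of CDT1 and GMNN. Both proteins are degraded at set points of the cell cycle, and transcript counts do not measure that.

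**Figure D3:**
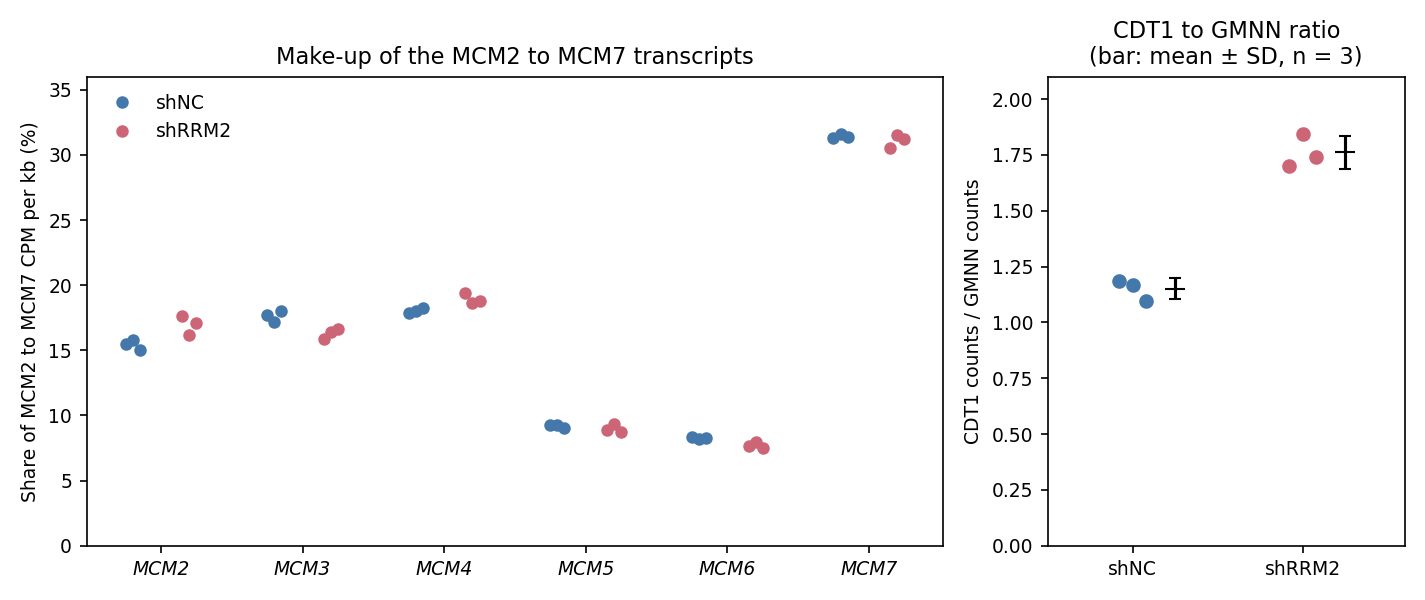
Left, share of each ring gene in the summed MCM2 to MCM7 level per kilobase (percent, vertical axis) in every library; right, CDT1 counts divided by GMNN counts in every library, with mean ± SD. MCM2 and MCM4 take slightly larger shares in shRRM2 and MCM3 and MCM6 smaller ones, and the ratio goes from 1.15 ± 0.0467 to 1.76 ± 0.0731 (SD, n = 3).

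Per kilobase of principal transcript, MCM7 was the most abundant in shNC at 184 ± 4.32 CPM per kilobase (SD, n = 3), and MCM10 the least at 19.5 ± 0.717. Between them came MCM4 at 105.7, MCM3 at 103, MCM2 at 90.4, GMNN at 80.8, MCM5 at 53.8, MCM6 at 48.5, CDT1 at 36.2 and CDC6 at 31.0 CPM per kilobase. Only MCM4 and MCM3 overlapped in this order. In shRRM2, CDT1, at 49.3 ± 3.04 CPM per kilobase, stood above MCM5 at 43.3 ± 2.09 and MCM6 at 37.2 ± 1.54, and MCM2 and MCM3 were the neighbours that overlapped. The order depends on the transcript length used: with the union of all annotated exons, MCM5 came at 25.9 and GMNN at 41.2 CPM per kilobase in shNC. By that length CDT1, at 35.1, was already above MCM5 in shNC, though below MCM6 at 44.0.

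RefSeq promoter windows (GRCh38.p14, 250 bases before to 50 after a gene's start) were at hand for 8 of the 10 genes, all but MCM4 and MCM5. For GMNN and MCM7 the start used in that table lies 476 and 868 bases inside the span given above, so their windows are not at the first base of that span, read along the gene; for the other 6 they are. They were searched on both strands for the E2F words TTTGGCGC and TTTCGCGC, because E2F is the best known regulator of this gene group. The words were found for 5 of the 8 genes, MCM2, MCM3, MCM6, CDC6 and GMNN, and in 1.15% of all 35116 windows. Stretches with the matches are shown 5′ to 3′ on the gene's own strand, with the matched words in capitals.
MCM2 (chr3:127598404-127598433, + strand): tgaaccactTTTCGCGCGAAAcctggttgt
MCM3 (chr6:52284728-52284757, − strand): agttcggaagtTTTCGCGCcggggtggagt
MCM6 (chr2:135876492-135876625, − strand): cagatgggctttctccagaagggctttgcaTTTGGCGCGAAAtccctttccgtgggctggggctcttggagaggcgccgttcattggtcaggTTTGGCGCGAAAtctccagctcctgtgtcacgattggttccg
CDC6 (chr17:40287875-40287904, + strand): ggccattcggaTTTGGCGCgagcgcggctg
GMNN (chr6:24775303-24775370, + strand): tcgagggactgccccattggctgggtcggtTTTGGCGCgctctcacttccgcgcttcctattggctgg
In MCM6 the same 12 letters, with the words overlapping on both strands, occur at 2 places, 152 and 90 bases before the start. In MCM3 the word lies across the annotated start.

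Genes with and without a match were found among both the higher and the lower members. MCM2, MCM3, MCM6 and GMNN were lower and CDC6 was higher with a match, and MCM7 was lower and MCM10 and CDT1 were higher without one in this window. CCAAT, the word bound by NF-Y, was found in 6 of the 8 windows (all but MCM2 and CDT1) and in 34.6% of all windows. Of the 240 tested genes with an E2F word in the window, 34.6% were lower and 21.2% higher in shRRM2, with a median log2 fold change of −0.054. Of the 11461 tested genes with a window and no such word, 27.3% were lower and 28.0% higher, with a median of 0.0054. The 240 genes include the members MCM2, MCM3, MCM6, CDC6 and GMNN. The median control level was 37.7 CPM for genes with the word and 27.5 CPM for those without it. More abundant genes passed more often, and more often downward, as given above for genes at or above the level of MCM10. These shares are a description of these libraries, and whether they differ beyond this difference in level was not tested.

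Among the 8 members with a promoter window, MCM2 and MCM7 have a gene on the opposite strand that starts close by. MCM4 and MCM5 had no window and were not searched for such a gene. TPRA1, a membrane protein gene, starts 180 bases from MCM2. Its level was 93.5 ± 2.36 CPM in the controls and 95.9 ± 4.40 CPM in the knockdown (SD, n = 3 each; log2 fold change 0.04, 95% interval −0.06 to 0.13; edgeR adjusted p = 0.542). AP4M1, a subunit of an adaptor complex of vesicle traffic, starts 265 bases from the MCM7 start of the promoter table and overlaps its span. It was at 18.1 ± 0.809 and 19.1 ± 1.48 CPM (0.08, 95% interval −0.11 to 0.27; edgeR adjusted p = 0.511). So neither neighbour passed the test while MCM2 and MCM7 fell, though the difference between the genes of a pair was not tested. Whether the authors counted by strand is not given in the sources used here, so reads where AP4M1 and MCM7 overlap may not be told apart.

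MCM7 also holds the hairpins of 3 microRNAs within its span. They are shown because they lie in a gene that fell; the capitals mark the seed, bases 2 to 8, which is the same in the first and the second.
hsa-miR-106b-5p (chr7:100094043-100094063, − strand): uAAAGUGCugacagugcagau
hsa-miR-93-5p (chr7:100093815-100093837, − strand): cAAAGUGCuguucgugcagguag
hsa-miR-25-3p (chr7:100093571-100093592, − strand): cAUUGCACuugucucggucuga
Poly(A) libraries do not measure mature microRNAs, and reads assigned to the hairpin genes can come from longer transcripts. MIR106B and MIR93 had 1 and 12 counts in total over the 6 libraries. MIR25 had 12, 14 and 8 counts in the control libraries against 19, 23 and 21 in the knockdown, higher in every knockdown library, but it did not pass (log2 fold change 0.92, SE 0.396; edgeR adjusted p = 0.0511).

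The genes that act before the ring is loaded were split. Of 10 origin recognition and loading genes, 5 rose and 4 fell (median 0.14), or 90.0% called. The share was 52.1% of all tested genes and 72.5% of those at least as abundant as MCM10. All of the list but KAT7 and MCMBP were below MCM10 in mean control level. Among the ORC subunits, ORC2 was lower at −0.43 (SE 0.0693; edgeR adjusted p = 2.72e-06), ORC5 at −0.43 and ORC4 at −0.30, while ORC6 rose by 0.24 and ORC3 by 0.23. ORC1, the subunit whose protein level cycles in human cells, was at 55.9 ± 1.78 and 59.3 ± 2.41 CPM (SD, n = 3 each; 0.09, edgeR adjusted p = 0.192). MCMBP, which binds newly made MCM subunits, fell from 137 ± 6.28 to 95.01 ± 1.81 CPM (−0.53, SE 0.0424; edgeR adjusted p = 1.92e-12), beside −0.39 for MCM3. KAT7, the histone acetyltransferase HBO1 that acts at origins, rose by 0.19, its partner BRPF3 by 0.44 and the ORC-binding LRWD1 by 0.31.

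The genes that turn the loaded ring into a working helicase changed at close to the share of all tested genes. Of 17 measured, 5 rose and 3 fell (median 0.03), or 47.1% against the 52.1% of all tested genes. The share was 72.5% among tested genes at least as abundant as MCM10. In mean control level, GINS1, GINS3, CDC7, DBF4, MTBP, DONSON, WDHD1 and TIPIN of this list were below MCM10. CDC45 was at 65.9 ± 1.07 and 65.2 ± 0.933 CPM (SD, n = 3 each; −0.01, edgeR adjusted p = 0.836). Of the GINS subunits only GINS2 passed, from 64.2 ± 0.735 to 50.7 ± 3.63 CPM (−0.34, SE 0.0567; edgeR adjusted p = 5.43e-06). GINS1, GINS3 and GINS4 were at −0.03, 0.18 and 0.08 (edgeR adjusted p = 0.781, 0.0742 and 0.207), and GINS3 passed without shNC replicate 3 (0.25; edgeR adjusted p = 0.028). The checkpoint mediator CLSPN (claspin) rose by 0.27, DONSON by 0.25, the firing factor TICRR by 0.25 and the fork protein TIMELESS by 0.23, while TOPBP1, which helps to recruit CDC45, was lower at −0.23. MTBP, the partner of TICRR, was lower at −0.27 (edgeR adjusted p = 0.0398) with groups that overlapped, and it lost the call without shNC replicate 1 (−0.21), shNC replicate 3 (−0.27) or shRRM2 replicate 2 (−0.14; adjusted p = 0.168, 0.0833 and 0.31).

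Genes that act in the turnover of the licensing factors, or control it, changed in both directions. Of 14 measured, 5 rose and 6 fell (median 0.0010), or 78.6% called against the same 52.1% and 72.5%. CUL4A, a scaffold of the ubiquitin ligase that destroys CDT1 during DNA synthesis, fell from 535 ± 8.08 to 382 ± 4.44 CPM (−0.49, SE 0.0296; edgeR adjusted p = 1.99e-15). Its paralogue CUL4B rose by 0.24, DTL, which hands CDT1 to that ligase, by 0.26 and the adaptor DDB1 by 0.10. RBX1, the RING subunit, was lower at −0.27. FZR1, which directs the anaphase-promoting complex to geminin and CDC6, rose by 0.27. CUL1 was lower at −0.22, and CCNF, the cyclin that targets CDC6, at −0.14.

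Of 10 genes that take the helicase off DNA after synthesis, 4 rose and 5 fell (median −0.10), or 90.0% called against the same 52.1% and 72.5%. TRAIP, a ubiquitin ligase for helicases still on DNA at mitosis, rose from 20.0 ± 0.929 to 32.1 ± 1.38 CPM (0.68, SE 0.0787; edgeR adjusted p = 6.07e-09). FAF1, a cofactor of the unfoldase VCP, was lower at −0.68 (SE 0.0535), and LRR1, ELOB and ELOC of the ligase that acts at termination at −0.26, −0.16 and −0.16. The VCP cofactors NPLOC4, UFD1 and UBXN7 rose by 0.28, 0.25 and 0.13. UBXN7 and LRR1 lost the call without shNC replicate 2 (0.12 and −0.22; edgeR adjusted p = 0.0585 and 0.0603).

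The relatives of the licensing genes gave 1 rise and 2 falls among 6 measured, or 50.0%, near the 52.1% of all tested genes. Among tested genes at least as abundant as MCM10, 72.5% passed, but of these relatives only MCM8 and MCM3AP reached its mean control level. HROB, which loads the MCM8 and MCM9 helicase in recombination, rose from 17.4 ± 1.72 to 31.8 ± 1.70 CPM (0.88, SE 0.0849; edgeR adjusted p = 1.27e-10), while MCM8 and MCM9 were at −0.06 and −0.30 (edgeR adjusted p = 0.407 and 0.0559). MCM9 passed without shNC replicate 1 (−0.39; edgeR adjusted p = 0.0291) and without shRRM2 replicate 2 (−0.43; edgeR adjusted p = 0.0124). MCM3AP, which binds MCM3, was lower at −0.21, and the geminin relative MCIDAS at −0.38, a call that was lost without shNC replicate 2 (−0.24; edgeR adjusted p = 0.201). GMNC, another geminin relative, had 0 counts in every library.

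**Figure D4:**
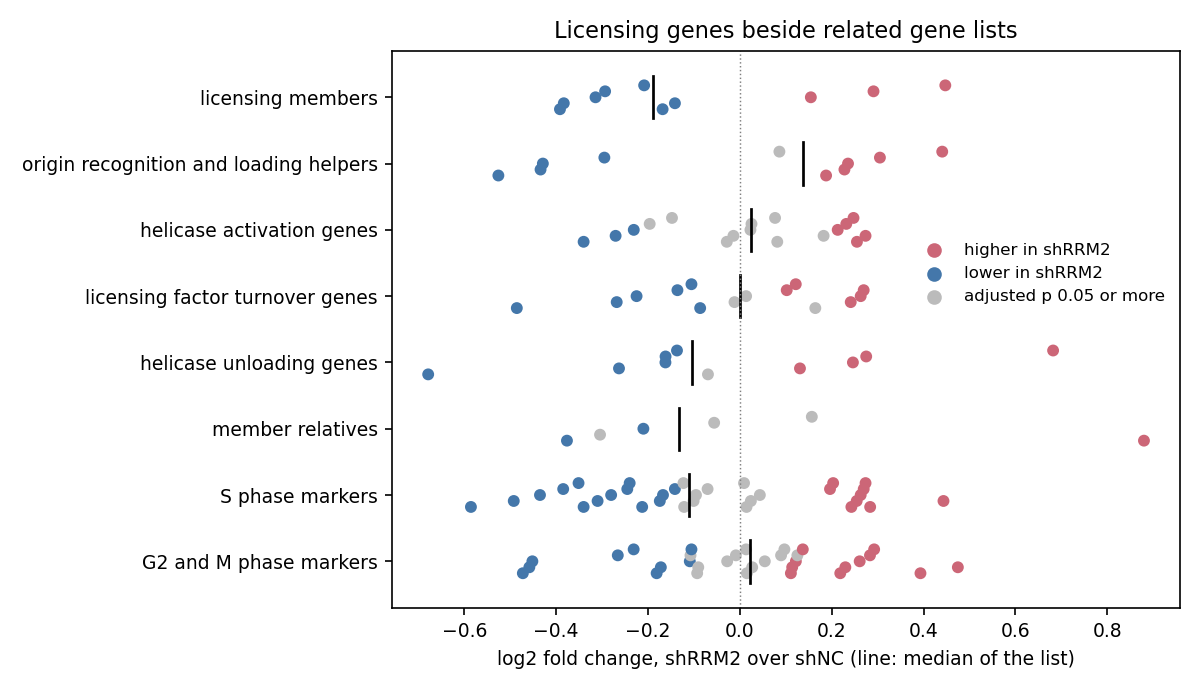
Log2 fold change of shRRM2 over shNC (horizontal axis) for the 10 licensing genes and 7 related lists, 1 point a gene, coloured by the edgeR call, with a line at each list's median. Every list holds genes on both sides of 0; the medians run from −0.19 for the licensing genes to 0.14 for the origin recognition genes.

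Other transcripts that mark S phase moved in both directions beside the licensing genes. Of 32 S phase markers outside the 10 genes, 9 rose and 14 fell (median −0.11); DTL, CLSPN and GINS2 also stand on lists above. UHRF1 was lower at −0.59, SLBP at −0.44, UNG at −0.38 and the clamp PCNA at −0.35, while EXO1 rose by 0.44, CLSPN by 0.27, DTL by 0.26 and RRM1 by 0.20. Of 32 markers of G2 and mitosis, 11 rose and 9 fell (median 0.02), with PLK1, CDC20, GTSE1 and MKI67 at −0.47, −0.46, −0.45 and −0.27 and KIF2C, BUB1, AURKB and BIRC5 at 0.39, 0.28, 0.26 and 0.23. CDK1 and CCNA2 also stand on the turnover list, and without them 11 of 30 rose and 8 fell (median 0.04). Of the S phase markers, 71.9% passed, and of the G2 and mitosis markers 62.5%, against 52.1% of all tested genes and 72.5% of those at least as abundant as MCM10. In bulk RNA, a different share of cells in a phase and a different level per cell cannot be told apart, and the part of cell cycle make-up in the changes of the 10 genes was not tested.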

How the data were processed

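Polyadenylated RNA was sequenced from 3 shNC and 3 shRRM2 libraries after a directional preparation, per the labels' protocols. The deposited values are whole-number read counts per NCBI Gene ID. The authors' tools were fastp 0.23.4 and featureCounts on hg38, per the submitters' processing notes. The sources used here name no aligner, annotation release or strand setting. The knockdown columns read si-RRM2 whereas the labels say shRRM2; they were matched by gene name and number, and the labels' name is used. Of the 42902 IDs, 40120 were matched to a symbol in RefSeq GRCh38.p14.

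Genes were filtered with filterByExpr (15866 kept), scaled with TMM and tested with edgeR 4.0.16 (quasi-likelihood, robust, group only, two-sided) in R 4.3.3. P-values were adjusted over all tested genes by the Benjamini-Hochberg method. Each SE was derived from the F statistic (the absolute fold change over its root). Lengths came from GENCODE 29 principal transcripts. The test was checked on simulated counts, but with far fewer changed genes than here and with changes larger than those of most members. That check therefore does not give the error rate for these libraries. The members and lists were chosen with earlier results of these data known. Named were all members, ORC and GINS subunits and, on each list, the 4 genes with the smallest p in each direction. Genes sharing a promoter region with a member (starts within 1000 bases) were also named, but MCM4 and MCM5 were not searched. MIR25, CDC45, MCM8 and MCM9 were chosen after their values were seen. The union of exons as a length, the comparison with genes at least as abundant as MCM10, and the promoter words were added after the data were seen. Alternatives were RLE factors, library size alone, other filters, DESeq2 1.42.0, limma-voom (limma 3.58.1), the replicate number as a block, a threshold of 0.01 and leaving out each library. One cell type marker is not reported here.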

Additional observations from a re-analysis of the deposited data

How the results depend on the processing

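All 10 licensing genes kept their direction and their side of the threshold under each of the 14 alternatives. Their log2 fold changes ranged from −0.42 to −0.35 for MCM3, from −0.18 to −0.10 for MCM2, from 0.40 to 0.49 for CDT1 and from −0.18 to −0.13 for GMNN, whose adjusted p was at most 0.0267. The total called on each related list stayed within 1.5 times, but the falls among the relatives were 1 rather than 2 with a threshold of 0.01 and without shNC replicate 2. CDC45, not called, was at 0.023 with library size alone. MIR25 passed with library size alone (0.96), with the filter at 1 CPM (0.93) and with limma-voom (0.91; adjusted p = 0.0423, 0.0366 and 0.0471). The CDT1 to GMNN difference ranged from 0.58 to 0.64. GINS1, not called, changed sign with library size alone (0.0088) and, over the fits that left out 1 library, ran from −0.12 to 0.035, and GINS3 passed with library size alone (0.22) and without shNC replicate 3 (0.25). MTBP did not pass with library size alone (−0.23; adjusted p = 0.0798) or DESeq2 (−0.27; adjusted p = 0.081). Without a composition scaling, 4619 genes were higher and 3616 lower over the whole table, against 4119 and 4143. With a threshold of 0.01, MTBP, UBXN7 and MCIDAS did not pass, and 15 of the 32 G2 and mitosis markers passed.

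The libraries share replicate numbers, but same-numbered libraries did not deviate together (correlations of −0.021 to −0.0034), so the numbers were not taken as pairs. With the replicate number as a block, 10 licensing genes passed, the CDT1 to GMNN difference was 0.62 and RRM2 was at −2.31, and 8244 genes passed in all against 8262; MCM9 passed (−0.30; adjusted p = 0.04996).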
